A study of Mus musculus with 12 samples.

Results

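The effects of viruses made to lower and to raise lncRNA5251 in mouse testis were set against each other gene by gene. For every gene the contrast was the log2 fold change of F0_5251KD against F0_3NC minus the log2 fold change of F0_5251OV against F0_5NC. A positive contrast means that the knockdown effect was the higher of the pair, and a contrast far from 0 arises when the effects point in opposite directions or when only 1 of them is large. Of 20718 genes in the table, 16296 (78.7%) had enough counts to be tested, and all of these were kept. The 2 comparisons within the contrast are called the knockdown arm and the overexpression arm.

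Testis RNA was sequenced from F0 male mice (strain given as IRC mouse in the labels and as ICR in the methods) in 4 groups of 3 libraries. F0_3NC received the control lentivirus on the LV3 backbone, and F0_5251KD received a mixture of 3 shRNA viruses against lncRNA5251 on that backbone. F0_5NC received the empty LV5 vector, and F0_5251OV received LV5 carrying the full-length lncRNA5251. Every group was therefore injected with virus and no group was left without injection, and the arms differ in backbone as well as in the direction of the change. The viruses were injected into the testes at 4 weeks of age, and the mice were raised for 5 weeks to 9 weeks of age and then mated before collection. The methods do not name a promoter or a cell type to which expression was limited, and the labels do not say whether the libraries came from separate animals, so a p-value here reflects only how far these libraries differ from one another.

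Long noncoding RNAs can act in the nucleus or the cytoplasm, and a function that depends on the amount of the RNA can show as opposite changes when the RNA is lowered and raised. Testis holds germ cells from spermatogonia to elongated spermatids inside tubules, together with Sertoli cells, which nurse them and form the blood-testis barrier, and peritubular muscle cells around the tubule. Between the tubules lie Leydig cells, which make testosterone, with vessels and macrophages.

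The knockdown sequences define 1 arm of the contrast, and they were matched to all 141767 GENCODE M21 transcripts with 0 mismatches. Each matched 1 transcript, that of Purb on chromosome 11 in the sense orientation, within its 3′ untranslated region (GRCm38, minus strand, at chr11:6468416-6468436, chr11:6467969-6467989 and chr11:6468248-6468268 in the order below). They are shown because reads of Purb, a single-stranded nucleic acid binding protein, are the nearest measurement of the targeted locus in the table. lncRNA5251 itself was not analysed here, so none of the values below shows how far the viruses lowered or raised it.
shRNA 1: gctgggacttaatgtccttct
shRNA 2: gcatgggcaattcaaacaaat
shRNA 3: gcttattatgcatcgtaaacc

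Levels are given as CPM, in which the counts of every library are brought to the same total. Purb measured 76.3, 92.3 and 73.9 CPM in F0_3NC against 79.6, 72.8 and 72.2 in F0_5251KD, and 74.8, 68.4 and 75.6 in F0_5NC against 80.2, 74.9 and 70.2 in F0_5251OV. The groups overlapped in both arms. The log2 fold change was -0.11 in the knockdown arm and 0.04 in the overexpression arm, and the contrast was -0.15 ± 0.13 (SE; 95% interval -0.44 to 0.13; edgeR adjusted p = 0.63). It was 0.03 without the 2 libraries and 0.04 with the GC offset, so its sign depended on those settings.

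The libraries held 15431383 to 16355720 estimated counts, a ratio of 1.06, and they carried the marks of testis. The germ cell genes Prm1 and Tnp1 lay between 9805 and 12381 FPKM (read fragments per transcript length at equal library totals) and between 5575 and 7043 FPKM, and the Leydig cell genes Insl3 and Cyp17a1 between 1322 and 3541 FPKM and between 216 and 502 FPKM. Genes of other tissue varied: the epididymal gene Crisp1 averaged 1.92, 0.067, 49.7 and 28.3 FPKM in F0_3NC, F0_5251KD, F0_5NC and F0_5251OV. The adipocyte gene Adipoq stayed between 8.30 and 12.8 FPKM.

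A pair of libraries stood apart from the other 10 by GC content. In F0_3NC replicate 2 the median deviation from the mean of all libraries ran from 0.31 for transcripts of up to 40% GC to -0.38 for those above 60%, on the scale of log2(CPM + 0.5). In F0_5251OV replicate 1 it ran from 0.24 to -0.31. In the other 10 libraries the difference between these classes lay between -0.003 and 0.22. Both libraries enter the contrast with the same sign, and the median contrast ran from -0.27 in the lowest GC class to 0.31 in the highest. It ran from -0.007 to 0.069 without the 2 libraries and from -0.007 to 0.023 when the GC trend of each library was taken out as an offset. Results are therefore given in 3 ways: with all 12 libraries, without the 2 libraries and with the GC offset.

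**Figure D1:**
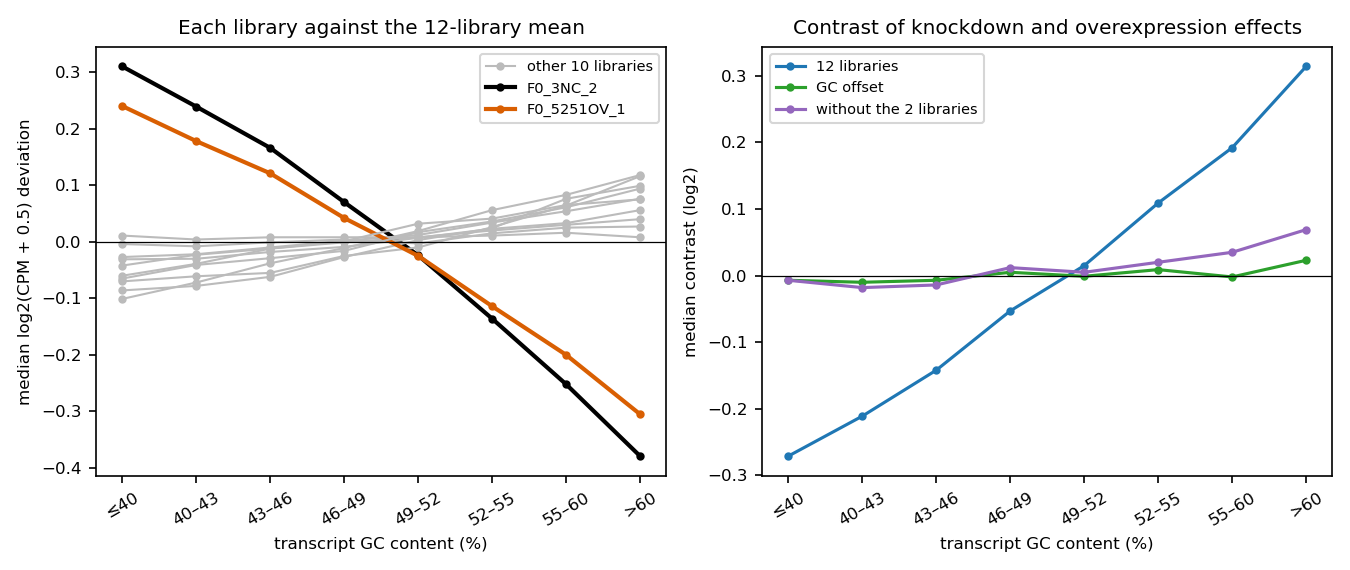
Left, median deviation of each library (log2(CPM + 0.5)) in 8 classes of transcript GC content, with F0_3NC replicate 2 and F0_5251OV replicate 1 in bold. Right, median contrast (log2) in the same classes for the 3 settings; the line for 12 libraries climbs from -0.27 to 0.31 and the others stay near 0.

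Over all genes, edgeR called 0 of 16296 genes (0.0%) at a Benjamini-Hochberg adjusted p under 0.05, and the smallest adjusted p was 0.11, for Plin1. At an unadjusted p under 0.05 the contrast was higher for 852 genes (5.23%) and lower for 990 (6.08%). Without the 2 libraries these counts were 779 (4.74%) and 504 (3.07%) of 16419 genes, and with the GC offset they were 716 (4.39%) and 757 (4.65%). Other scalings gave other splits, 990 higher to 757 lower with upper-quartile scaling and 1066 to 559 with limma on log2(FPKM + 1), and 1060 to 555 on log2(FPKM + 0.1). DESeq2 called 31 of 16045 genes (0.193%), 21 higher and 10 lower, and called 5 without the 2 libraries, Btg2, Egr1, Fos, Ren1 and Sema5b.

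Opposite signs were more frequent than equal signs. The knockdown effect was above 0 and the overexpression effect below 0 for 5159 genes (31.7%), and the reverse held for 5235 (32.1%), while both were above 0 for 2837 (17.4%) and both below 0 for 3063 (18.8%). Opposite signs made up 63.8% of the genes with all libraries, 58.0% without the 2 libraries and 56.8% with the GC offset. Most effects were small, with a median absolute contrast of 0.21, and 588 genes (3.6%) had a contrast beyond 1 in either direction.

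A stricter description asked for genes whose 3 treated libraries all lay on one side of their controls in one arm and on the other side in the other arm. With all libraries, 121 genes (0.743%) were higher after knockdown and lower after overexpression, and 141 (0.865%) were lower after knockdown and higher after overexpression. For comparison, 24 genes lay above their controls in both arms and 41 below in both. With the GC offset, 172 genes were apart in opposite directions and 86 in the same direction. Of the 1842 genes with an unadjusted p under 0.05 in the contrast, 102 (5.5%) had such a p in both arms, 355 (19.3%) in the knockdown arm only, 721 (39.1%) in the overexpression arm only and 664 (36.0%) in neither. The genes with such a p in the overexpression arm only were the largest of these classes.

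**Figure D2:**
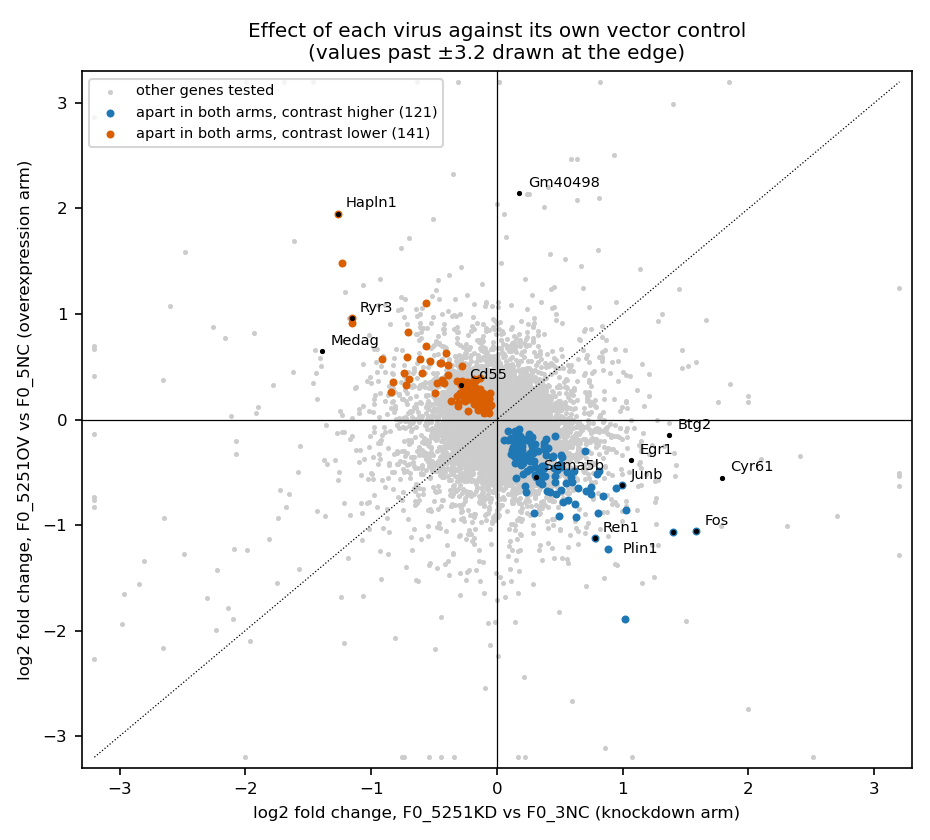
Log2 fold change of F0_5251KD vs F0_3NC (x axis) against F0_5251OV vs F0_5NC (y axis) for each gene tested. Coloured points are the 121 and 141 genes whose libraries lay apart in both arms in opposite directions, the dotted line marks equal effects, and Btg2, Egr1 and Cyr61 lie far along the knockdown axis while Gm40498 lies far along the overexpression axis.

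Among the genes with the smallest p and a positive contrast were several immediate early genes, a class that is switched on within minutes of a stimulus without new protein synthesis and encodes transcription factors and regulators of mRNA decay. Of the 12 genes with the smallest p in this direction (named genes had a mean of at least 1 CPM), 6 belonged to that list: Fos, Btg2, Egr1, Zfp36, Ier2 and Cyr61. Of the 852 genes with a higher contrast at an unadjusted p under 0.05, 17 were in the immediate early list. The libraries of the 6 genes lay higher in F0_5251KD than in F0_3NC without overlap.

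Fos (gene ID 14281, chr12:85473890-85477274 on GRCm38, as for all positions here), a subunit of the AP-1 transcription factor, measured 3.74, 4.80 and 2.91 CPM in F0_3NC against 9.09, 12.7 and 12.6 in F0_5251KD, and 1.26, 0.925 and 0.768 in F0_5NC against 0.313, 0.457 and 0.646 in F0_5251OV. Its libraries did not overlap in either arm, and they were highest in F0_5251KD and lowest in F0_5251OV. The level was low in the overexpression arm, with means of 0.51 FPKM in F0_5NC and 0.24 in F0_5251OV. The log2 fold change was 1.58 in the knockdown arm and -1.06 in the overexpression arm, and the contrast was 2.64 ± 0.43 (SE; 95% interval 1.72 to 3.56; edgeR adjusted p = 0.15). It was 2.64 without the 2 libraries and 2.58 with the GC offset.

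Junb (gene ID 16477, chr8:84976909-84978748), a partner of Fos in AP-1, measured 15.4, 10.5 and 15.6 CPM in F0_3NC against 29.0, 22.5 and 31.1 in F0_5251KD, and 6.11, 3.57 and 3.65 in F0_5NC against 2.32, 3.13 and 3.23 in F0_5251OV. Here too both arms were apart in opposite directions, with log2 fold changes of 0.996 and -0.62. The contrast was 1.62 ± 0.33 (SE; 95% interval 0.92 to 2.32; edgeR adjusted p = 0.21). DESeq2 gave adjusted p = 0.0044.

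Egr1, a zinc finger transcription factor, measured 54.3, 50.7 and 47.1 CPM in F0_3NC against 115, 92.3 and 111 in F0_5251KD, and 5.99, 3.30 and 4.09 in F0_5NC against 3.63, 3.52 and 3.17 in F0_5251OV. The knockdown libraries all lay above F0_3NC, whereas the overexpression libraries overlapped F0_5NC. The contrast of 1.45 ± 0.24 (SE; 95% interval 0.93 to 1.97; edgeR adjusted p = 0.15) was therefore carried by the knockdown arm, with log2 fold changes of 1.07 in the knockdown arm and -0.38 in the overexpression arm. The difference between the controls, F0_3NC minus F0_5NC, was 3.50 on the log2 scale, larger than either effect.

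Btg2 (gene ID 12227, chr1:134074865-134079155), an antiproliferative protein that recruits the mRNA deadenylase complex, measured 24.0, 23.5 and 22.1 CPM in F0_3NC against 56.9, 50.9 and 72.0 in F0_5251KD, and 5.39, 4.03 and 3.90 in F0_5NC against 3.32, 3.72 and 5.04 in F0_5251OV. Its log2 fold change was 1.37 in the knockdown arm and -0.15 in the overexpression arm, and the contrast was 1.52 ± 0.25 (SE; 95% interval 0.98 to 2.05; edgeR adjusted p = 0.15). Zfp36, which binds AU-rich mRNA and promotes its decay, averaged 13.4 ± 1.11 CPM in F0_3NC, 25.2 ± 2.71 in F0_5251KD, 4.83 ± 0.607 in F0_5NC and 4.30 ± 0.362 in F0_5251OV (SD, n = 3). Its contrast was 1.075 ± 0.19 (SE, edgeR adjusted p = 0.18), with 0.91 in the knockdown arm and -0.17 in the overexpression arm. In both genes the overexpression arm overlapped its control.

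The nuclear protein gene Ier2 averaged 5.74 ± 1.21 CPM in F0_3NC, 15.2 ± 2.62 in F0_5251KD, 3.16 ± 0.702 in F0_5NC and 2.56 ± 0.693 in F0_5251OV (SD, n = 3) and had a contrast of 1.72 ± 0.33 (SE, edgeR adjusted p = 0.21). Cyr61, a secreted matrix protein, averaged 3.21 ± 0.875 CPM in F0_3NC, 11.1 ± 2.27 in F0_5251KD, 2.59 ± 1.34 in F0_5NC and 1.78 ± 0.599 in F0_5251OV (SD, n = 3) and had a contrast of 2.34 ± 0.47 (SE, edgeR adjusted p = 0.21). F0_5251KD was the highest group for both. The differences between the controls were 0.85 for Ier2 and 0.30 for Cyr61, so the controls differed less there than for Egr1 (3.50), Btg2 (2.38) or Fos (1.94).

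Over the whole immediate early list, all 31 genes were tested and the contrast was above 0 for 28 and below 0 for 3. Below an unadjusted p of 0.05, 17 were higher and 0 lower, beside 5.23% and 6.08% of all genes, and edgeR called 0 after adjustment. The median contrast was 0.59 (0.55 without the 2 libraries, 0.47 with the GC offset), beside 0.003 for all genes. It lay between 0.48 and 0.74 when single libraries were left out. By arm the medians were 0.47 after knockdown and -0.17 after overexpression. In single libraries the median deviation of the list ran from 0.24 to 0.31 in F0_3NC and from 0.73 to 0.89 in F0_5251KD. It ran from -0.74 to -0.35 in F0_5NC and from -0.84 to -0.46 in F0_5251OV, so the libraries overlapped in the overexpression arm. The counts of higher members were 16 without the 2 libraries and 15 with the GC offset. After knockdown 17 members had an unadjusted p under 0.05 with an effect above 0 and 2 below 0, beside 2.34% and 2.4% of all genes. After overexpression the counts were 0 and 4, beside 3.97% and 4.8%. The list was chosen with earlier results of these libraries known, so its counts are a description.

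The members differed among themselves. Among genes singled out after their values were seen, Egr4 had its effect mostly in the overexpression arm, with log2 fold changes of 0.33 and -0.84 and a contrast of 1.18 (edgeR adjusted p = 0.35). Jun had 0.47 and -0.35 with a contrast of 0.82 (edgeR adjusted p = 0.39), and Klf6 had 0.48 and -0.48 with 0.96 (edgeR adjusted p = 0.39). Myc and Socs3, a growth regulator and an inhibitor of cytokine signalling, had contrasts of -0.72 and -0.48, and their knockdown effects were -0.92 and -0.997. Klf4, Egr3 and Ier5 had contrasts of 0.03, 0.03 and 0.06.

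**Figure D3:**
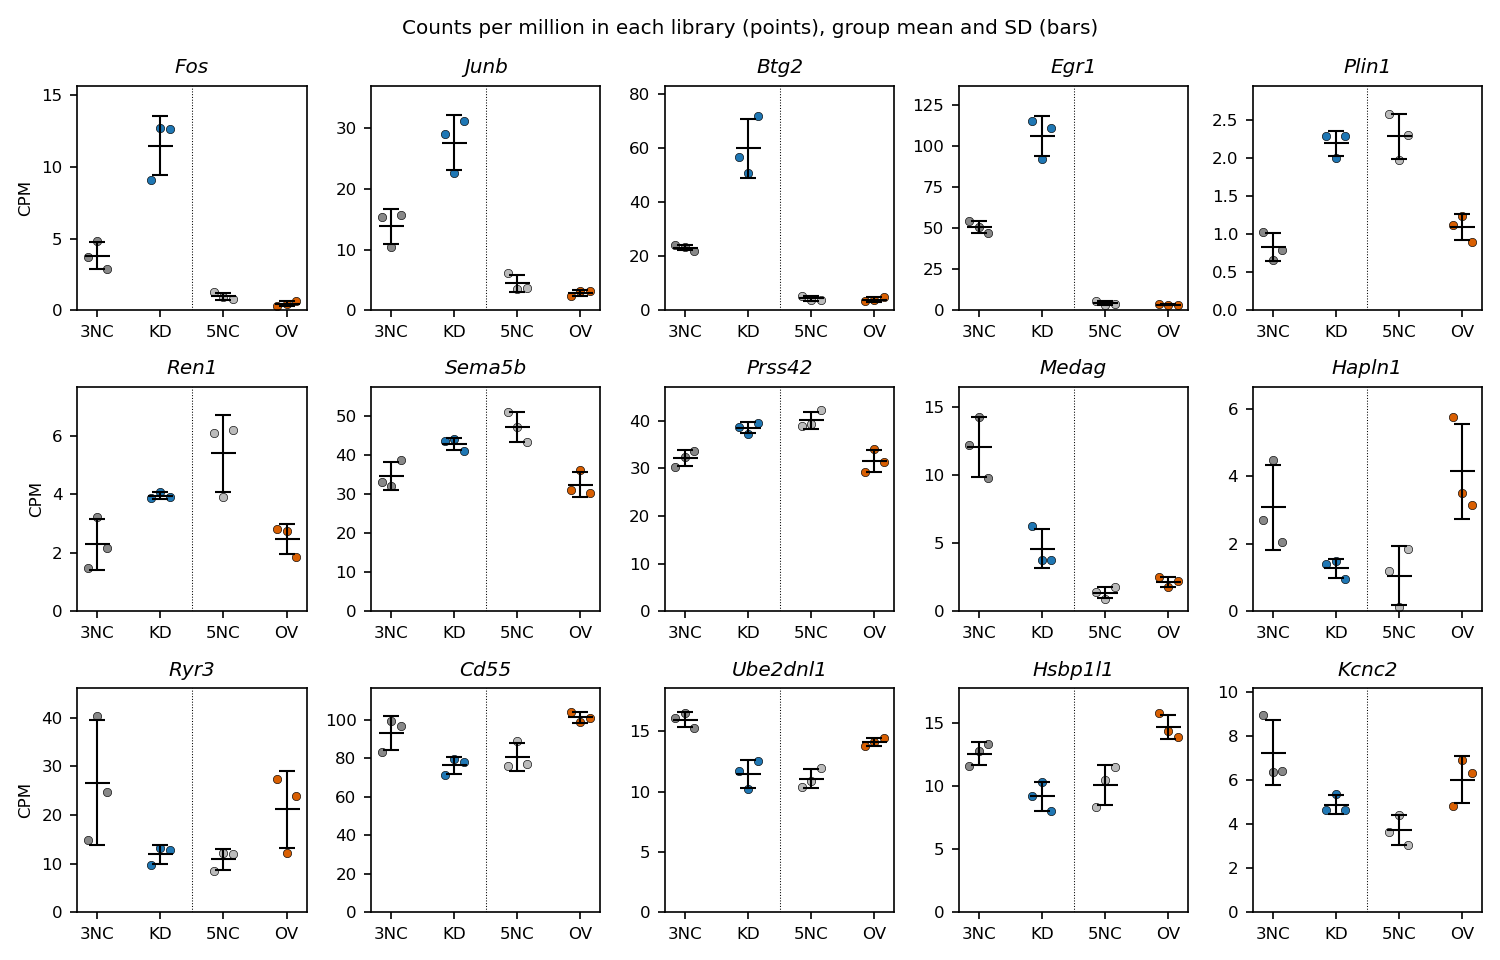
CPM (linear axes from 0) in each library for 15 genes, by group, with bars for the mean and SD of 3 libraries and a dotted line between the LV3 and LV5 backbones. Fos, Junb, Btg2 and Egr1 are highest in F0_5251KD and low in both LV5 groups, whereas Plin1, Sema5b, Cd55 and Ube2dnl1 show a similar level in F0_5251KD and F0_5NC and another similar level in F0_3NC and F0_5251OV.

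The 250 bases before the start sites of the immediate early genes were searched in RefSeq (GRCm38.p6) for sites known from stimulus-driven transcription. Every listed gene with a promoter was searched whatever its contrast, so the counts describe the list and not the effect of the viruses. The table held promoters for 24 of the 31 genes. The CArG box, bound by serum response factor, was found in 3 of the 24 genes (Zfp36, Egr2 and Dusp5) and in 1.62% of all genes in the table. A gene counted if any of its start sites had a match, and Egr2 had several start sites. The full cyclic AMP response element (TGACGTCA) was found in 2 of the 24 and in 1.77% of all genes, and the AP-1 site (TGACTCA or TGAGTCA), which is not part of it, in 0 of the 24 and in 5.16%. These patterns cover both strands. The promoters of Zfp36 and Btg2 are shown because these genes were among those with the smallest p and also held a match. Fos and Cyr61, likewise among those with the smallest p, had promoters without a match. Egr1 and Ier2 were not among the 24 genes with a promoter. Capitals mark the CArG box in Zfp36, which starts 58 bases before the start site (chr7:28379229-28379478, minus strand), and the response element in Btg2, which starts 166 bases before it (chr1:134079156-134079405, minus strand). A match describes the letters in the window and was not tested as a site.
Zfp36: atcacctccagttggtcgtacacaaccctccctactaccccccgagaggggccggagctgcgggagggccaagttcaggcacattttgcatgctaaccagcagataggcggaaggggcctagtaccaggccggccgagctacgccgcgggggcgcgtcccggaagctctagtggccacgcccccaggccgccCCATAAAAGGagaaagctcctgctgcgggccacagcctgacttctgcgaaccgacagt
Btg2: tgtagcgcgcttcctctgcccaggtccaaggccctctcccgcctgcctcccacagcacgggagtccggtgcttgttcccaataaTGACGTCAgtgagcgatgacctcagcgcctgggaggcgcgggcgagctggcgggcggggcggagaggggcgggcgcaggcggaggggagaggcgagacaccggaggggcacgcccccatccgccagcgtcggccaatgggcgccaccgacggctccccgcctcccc

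Several genes outside the immediate early list had effects in both arms. Plin1 (gene ID 103968, chr7:79721164-79732904), which coats the lipid droplets of adipocytes and is also found in steroid-making cells, measured 1.03, 0.669 and 0.793 CPM in F0_3NC against 2.29, 2.01 and 2.30 in F0_5251KD, and 2.58, 1.98 and 2.30 in F0_5NC against 1.13, 1.24 and 0.905 in F0_5251OV. The libraries were apart in both arms, with F0_5251KD near F0_5NC and F0_5251OV near F0_3NC. The log2 fold change was 1.40 in the knockdown arm and -1.06 in the overexpression arm, and the contrast was 2.46 ± 0.35 (SE; 95% interval 1.72 to 3.21; edgeR adjusted p = 0.11). It was 2.38 without the 2 libraries and 2.27 with the GC offset, and limma on log2(FPKM + 1) gave adjusted p = 0.030. The level is low, at 0.39 to 1.60 FPKM.

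The adipocyte list did not follow Plin1 as a whole. Its 10 tested genes had a median contrast of 0.81 (1.47 without the 2 libraries, 1.05 with the GC offset) with 2 higher and 2 lower (without the 2 libraries 4 and 2, with the GC offset 3 and 2) at an unadjusted p under 0.05, beside 5.23% and 6.08% of all genes. When single libraries were left out the median lay between 0.32 (without F0_5251KD replicate 1) and 1.26 (without F0_3NC replicate 2). Fabp4 had a contrast of 2.71 (edgeR adjusted p = 0.41), while Adipoq, a defining adipocyte gene, had -0.23 (edgeR adjusted p = 0.68). Fabp4 averaged 4.36, 9.76, 8.99 and 3.14 FPKM in F0_3NC, F0_5251KD, F0_5NC and F0_5251OV, so that, as for Plin1, F0_5251KD and F0_5NC were the higher groups. The part of adipose tissue in the samples was not tested.

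Ren1 (gene ID 19701, chr1:133350674-133360320), which encodes the aspartyl protease renin, measured 1.48, 3.22 and 2.18 CPM in F0_3NC against 3.88, 4.08 and 3.90 in F0_5251KD, and 6.11, 3.90 and 6.204 in F0_5NC against 2.82, 2.74 and 1.87 in F0_5251OV. Its libraries were apart in both arms, the contrast was 1.90 ± 0.38 (SE; 95% interval 1.07 to 2.73; edgeR adjusted p = 0.21), and it was 2.36 without the 2 libraries and 1.74 with the GC offset. The neighbouring copy Ren2 averaged 1.17 ± 0.637 CPM in F0_3NC, 2.39 ± 0.456 in F0_5251KD, 3.196 ± 0.86 in F0_5NC and 0.857 ± 0.754 in F0_5251OV (SD, n = 3) with a contrast of 2.91 ± 0.77 (SE, edgeR adjusted p = 0.39). Ren1 and Ren2 share reads, so the split of counts between them is uncertain. Spink4, a Kazal-type protease inhibitor, was apart in both arms too, with log2 fold changes of 0.95 and -0.65 and a contrast of 1.60 ± 0.35 (SE, edgeR adjusted p = 0.28).

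Sema5b (gene ID 20357, chr16:35541154-35664261), a transmembrane semaphorin, measured 33.1, 32.0 and 38.6 CPM in F0_3NC against 43.5, 44.0 and 40.9 in F0_5251KD, and 51.0, 47.0 and 43.2 in F0_5NC against 30.9, 36.1 and 30.2 in F0_5251OV. The differences were small but the libraries did not overlap in either arm, and the contrast was 0.85 ± 0.14 (SE; 95% interval 0.54 to 1.16; edgeR adjusted p = 0.15). It was 0.56 with the GC offset and 0.79 without the 2 libraries. Prss42, a serine protease of the testis, averaged 32.1 ± 1.65 CPM in F0_3NC, 38.5 ± 1.14 in F0_5251KD, 40.1 ± 1.81 in F0_5NC and 31.6 ± 2.34 in F0_5251OV (SD, n = 3), was apart in both arms, and had a contrast of 0.61 ± 0.12 (SE, edgeR adjusted p = 0.21). The difference of F0_3NC minus F0_5NC was -0.45 for Sema5b and -0.32 for Prss42 on the log2 scale.

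The remaining genes among these 12 were Tsku, a secreted leucine-rich proteoglycan, Amotl2, an angiomotin of cell junctions, and Slc45a3, a solute carrier. Their contrasts were 1.44, 1.03 and 1.54 (edgeR adjusted p = 0.21, 0.21 and 0.21), with knockdown effects of 1.15, 0.82 and 1.13 and overexpression effects of -0.29, -0.20 and -0.42. In each of them the overexpression libraries overlapped F0_5NC. Of the 12 genes, 4 were apart in both arms, beside 0.743% of all genes, and the knockdown effect was the larger in 10. All 12 had an unadjusted p under 0.05 without the 2 libraries and with the GC offset, in data that partly are those they were picked from.

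Of the 12 genes with the smallest p and a negative contrast, 9 were lower after knockdown and higher after overexpression without overlap, beside 0.865% of all genes. In the other direction 4 of 12 were apart in both arms, beside 0.743% of all genes. Both sets were picked by the smallest p of this same contrast, which favours such genes, so these counts are a description. Among the 12 with a negative contrast, the overexpression effect was the larger in all but 3. Their edgeR p lay between 9.2e-05 and 0.00068 and their adjusted p between 0.20 and 0.29.

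Ube2dnl1 (gene ID 237009, chrX:114905012-114905941), an X-linked member of the ubiquitin-conjugating enzyme family, measured 16.1, 16.5 and 15.3 CPM in F0_3NC against 11.7, 10.2 and 12.5 in F0_5251KD, and 10.4, 10.9 and 11.961 in F0_5NC against 13.8, 14.1 and 14.5 in F0_5251OV. The libraries were apart in both arms, and the contrast was -0.82 ± 0.15 (SE; 95% interval -1.15 to -0.50; edgeR adjusted p = 0.20). It has near-identical copies, so its counts are uncertain. Cd55 (gene ID 13136, chr1:130429798-130465009), which protects cells from complement, measured 83.3, 99.7 and 97.1 CPM in F0_3NC against 71.3, 79.6 and 78.4 in F0_5251KD, and 76.2, 89.3 and 77.1 in F0_5NC against 104, 98.7 and 101 in F0_5251OV. Its contrast was -0.61 ± 0.12 (SE, edgeR adjusted p = 0.21), -0.52 without the 2 libraries and -0.46 with the GC offset, and its reads may be shared with the neighbouring copy Cd55b.

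Hapln1 (gene ID 12950, chr13:89540529-89611832), which links hyaluronan to proteoglycans in the extracellular matrix, measured 2.71, 4.50 and 2.05 CPM in F0_3NC against 1.40, 1.49 and 0.958 in F0_5251KD, and 1.20, 0.132 and 1.85 in F0_5NC against 5.77, 3.52 and 3.17 in F0_5251OV. It had the largest negative contrast of the genes apart in both arms with at least 1 CPM, -3.22 ± 0.72 (SE; 95% interval -4.77 to -1.67; edgeR adjusted p = 0.28), and it was -2.50 without the 2 libraries and -2.95 with the GC offset. Ryr3 (gene ID 20192, chr2:112631354-113217405), a calcium release channel, measured 14.9, 40.3 and 24.6 CPM in F0_3NC against 9.72, 13.3 and 12.9 in F0_5251KD, and 8.45, 12.2 and 12.1 in F0_5NC against 27.5, 12.3 and 23.8 in F0_5251OV. Its contrast was -2.12 ± 0.47 (SE, edgeR adjusted p = 0.28), and without the 2 libraries it was -1.43. F0_3NC replicate 2 and F0_5251OV replicate 1 were the highest libraries of their groups.

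Hsbp1l1, a small relative of a heat shock factor binding protein, averaged 12.6 ± 0.897 CPM in F0_3NC, 9.21 ± 1.16 in F0_5251KD, 10.1 ± 1.59 in F0_5NC and 14.7 ± 0.981 in F0_5251OV (SD, n = 3) and had a contrast of -0.99 ± 0.19 (SE, edgeR adjusted p = 0.21). Kcnc2, a voltage-gated potassium channel, averaged 7.25 ± 1.48 CPM in F0_3NC, 4.89 ± 0.422 in F0_5251KD, 3.72 ± 0.68 in F0_5NC and 6.03 ± 1.079 in F0_5251OV (SD, n = 3) and had a contrast of -1.26 ± 0.28 (SE, edgeR adjusted p = 0.28). Hccs, which attaches heme to cytochrome c, and Sgpp2, a sphingosine-1-phosphate phosphatase, had contrasts of -0.79 and -0.90 (edgeR adjusted p = 0.28 and 0.29). The RIKEN gene 9130204L05Rik had -1.09 (edgeR adjusted p = 0.20). All of these were apart in both arms.

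The other genes of the 12 were carried more by 1 arm. Medag (gene ID 70717, chr5:149367641-149431723), which promotes adipocyte differentiation, measured 12.2, 14.2 and 9.78 CPM in F0_3NC against 6.29, 3.76 and 3.77 in F0_5251KD, and 1.44, 0.925 and 1.79 in F0_5NC against 2.51, 1.76 and 2.26 in F0_5251OV, with log2 fold changes of -1.39 in the knockdown arm and 0.65 in the overexpression arm and a contrast of -2.04 ± 0.38 (SE, edgeR adjusted p = 0.21). The controls differed by 3.11 on the log2 scale. Ell2, a transcription elongation factor, had a contrast of -0.51 ± 0.11 (SE, edgeR adjusted p = 0.27), which was -0.30 with the GC offset. The predicted gene Gm43828 was higher after overexpression by 1.080 and had a knockdown effect of -0.09.

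Gm40498 was the gene with the largest overexpression effect among those DESeq2 called. It measured 3.54, 4.08 and 5.62 CPM in F0_3NC against 2.92, 8.30 and 3.77 in F0_5251KD, and 2.88, 3.57 and 4.67 in F0_5NC against 16.8, 14.0 and 18.3 in F0_5251OV. All F0_5251OV libraries lay above the other 9, and the contrast was -1.97 ± 0.45 (SE, edgeR adjusted p = 0.30). Slc4a10, a bicarbonate transporter, Pvrig, an immune receptor, Tmem252, a membrane protein, and the protocadherin Pcdhb12 were apart in both arms at low levels, with contrasts of -1.67, -1.53, -1.49 and -1.31.

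All 31 genes that DESeq2 called had an unadjusted p under 0.05 in edgeR with the same sign. Both tests used the same counts, so this is not separate support. Of the 31 genes, 15 were apart in both arms in opposite directions, beside 1.6% of all genes. The 31 genes were picked by this same contrast, which favours such separation. Beyond those above they included Kifap3, a kinesin-associated protein needed for flagella, with 478 ± 47.2 CPM in F0_3NC, 366 ± 29.976 in F0_5251KD, 333 ± 66.9 in F0_5NC and 446 ± 45.1 in F0_5251OV (SD, n = 3) and a contrast of -0.81 ± 0.18 (SE, edgeR adjusted p = 0.29). Csdc2 and Smim1 were apart in both arms as well, with contrasts of 1.33 and 0.94. Col16a1, a collagen, Fcgr3, an immunoglobulin receptor of macrophages, Lgals3bp, Mocs1 and Zfp36l1 had contrasts of 0.75, 1.44, 0.88, 1.54 and 0.67.

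Genes of the somatic cells of the testis had positive median contrasts, beside 0.003 for all genes, and in each list the median was farther from 0 in the overexpression arm than in the knockdown arm. In bulk RNA, fewer cells of a type and less RNA per cell cannot be told apart. Of 14 peritubular smooth muscle genes, 7 were higher and 0 lower at an unadjusted p under 0.05, beside 5.23% and 6.08% of all genes, and 13 had a contrast above 0. The median was 0.56 (0.48 without the 2 libraries, 0.45 with the GC offset), with 7 higher under each setting, and it lay between 0.42 and 0.62 when single libraries were left out. By arm the medians were 0.14 after knockdown and -0.32 after overexpression.

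Myh11 (gene ID 17880, chr16:14194527-14292188), the smooth muscle myosin heavy chain, averaged 26.9 ± 2.53 CPM in F0_3NC, 29.2 ± 1.66 in F0_5251KD, 31.5 ± 3.22 in F0_5NC and 22.6 ± 1.03 in F0_5251OV (SD, n = 3), with a contrast of 0.60 ± 0.15 (SE, edgeR adjusted p = 0.35). Smtn, which binds actin in contractile cells, had a contrast of 0.90 ± 0.26 (SE, edgeR adjusted p = 0.39), and Acta2 had 0.58 (edgeR adjusted p = 0.40). Actg2 was the member below 0, at -0.13. The median deviation of the list in single libraries ran from -0.23 to -0.15 in F0_5251OV and from -0.007 to 0.33 in F0_5NC, and from 0.11 to 0.16 in F0_5251KD and from -0.13 to 0.03 in F0_3NC. F0_5NC replicate 1 had the highest level of this list, of the Sertoli cell list and of the macrophage list, with deviations of 0.33, 0.43 and 0.56, and its part in these results was tested only by leaving it out.

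All 14 endothelial genes had a contrast above 0, with a median of 0.49 (0.46 without the 2 libraries, 0.40 with the GC offset) and 3 higher and 0 lower (without the 2 libraries 3 and 0, with the GC offset 4 and 0). Robo4 and Cdh5, a vascular guidance receptor and the cadherin of endothelial junctions, had contrasts of 1.65 ± 0.56 (SE, edgeR adjusted p = 0.40) and 0.72 ± 0.25 (SE, edgeR adjusted p = 0.40). The 17 Leydig cell genes had a median of 0.37 (0.42 without the 2 libraries, 0.27 with the GC offset), with 5 higher and 0 lower (without the 2 libraries 2 and 0, with the GC offset 3 and 0). The median was 0.15 without F0_5NC replicate 3. Nr5a1, a regulator of steroidogenic genes, had a contrast of 0.87 ± 0.28 (SE, edgeR adjusted p = 0.40), and Insl3, a Leydig cell hormone, averaged 725 ± 62.1 CPM in F0_3NC, 933 ± 327 in F0_5251KD, 1031 ± 416 in F0_5NC and 699 ± 141 in F0_5251OV (SD, n = 3) with a contrast of 0.93 ± 0.37 (SE, edgeR adjusted p = 0.42).

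The 20 Sertoli cell genes had a median of 0.23 (0.26 without the 2 libraries, 0.22 with the GC offset), with 4 higher and 0 lower (without the 2 libraries 2 and 0, with the GC offset 3 and 0). It was 0.076 without F0_5NC replicate 1, the library with the highest level of that list, and 0.34 without F0_5NC replicate 3. Amh, a hormone of immature Sertoli cells, had a contrast of 1.57 ± 0.48 (SE, edgeR adjusted p = 0.39) at 0.34 to 1.52 FPKM, and Clu, a secreted chaperone, had 0.56 ± 0.23 (SE, edgeR adjusted p = 0.42). The 15 macrophage genes had a median of 0.39 (0.51 without the 2 libraries, 0.24 with the GC offset), with 2 higher and 0 lower (without the 2 libraries 3 and 0, with the GC offset 1 and 1). Leaving out F0_5NC replicate 1 gave 0.19, and leaving out F0_3NC replicate 2 gave 0.62. The 28 extracellular matrix genes had 0.30 (0.36 without the 2 libraries, 0.24 with the GC offset), with 4 higher and 1 lower (without the 2 libraries 5 and 0, with the GC offset 1 and 1). Lamb2 and Lamc3, laminin chains of basement membranes, had contrasts of 0.77 and 0.94 (edgeR adjusted p = 0.39 and 0.40).

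**Figure D4:**
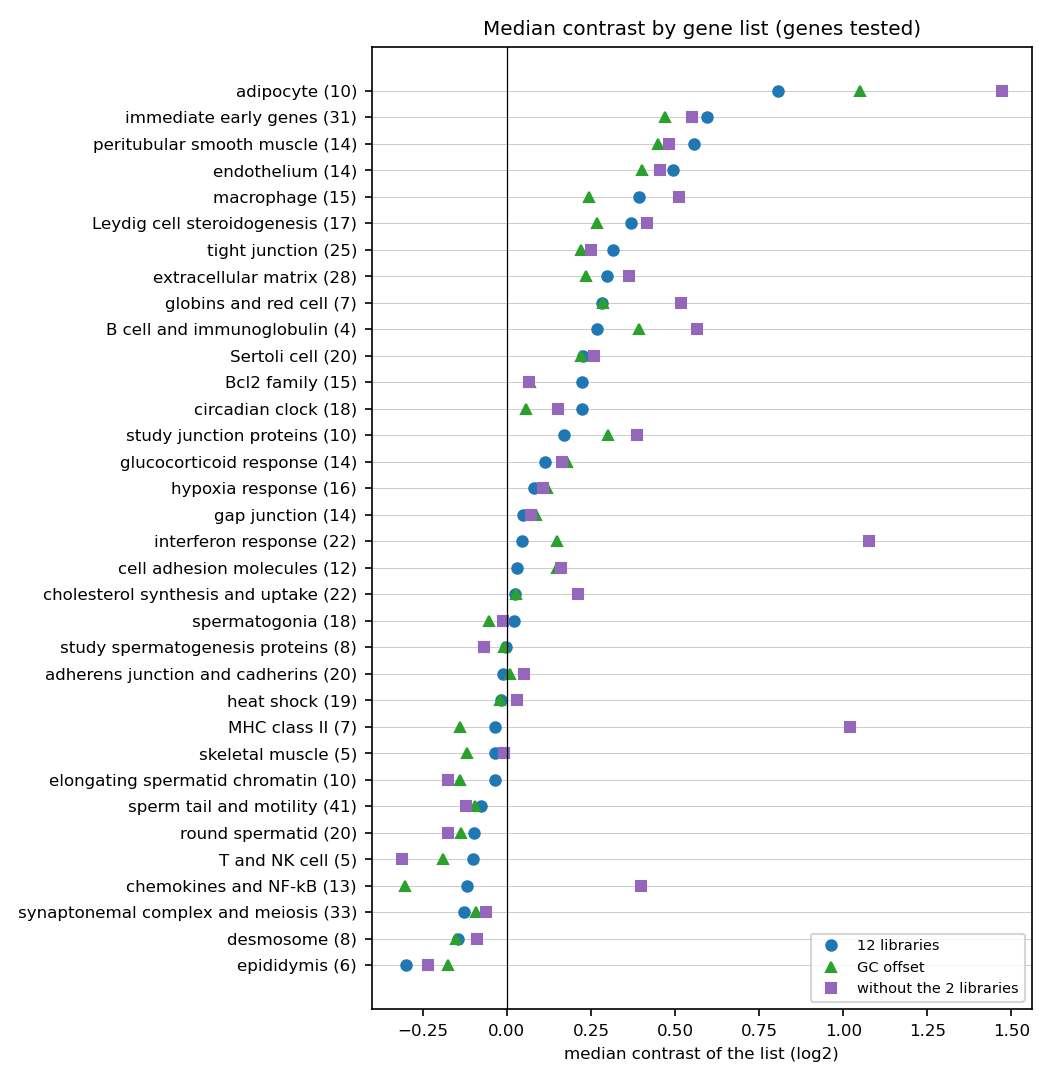
Median contrast (log2, x axis) of 34 gene lists with the number of genes tested in brackets, for the 3 settings. Immediate early, peritubular, endothelial and Leydig cell lists lie above 0 in all 3, meiosis and spermatid lists lie below 0, and the interferon and MHC class II lists move past 1 only without the 2 libraries.

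Cell junctions were the theme of the study, and its stained or blotted proteins were looked at in RNA. Of 10 tested genes of the junction proteins, 2 were higher and 0 lower at an unadjusted p under 0.05, beside 5.23% and 6.08% of all genes, and edgeR called 0. F11r, which encodes JAM1, had a contrast of 0.49 ± 0.21 (SE, edgeR adjusted p = 0.42), and Ocln, occludin, had 0.49 ± 0.22 (SE, edgeR adjusted p = 0.44). The contrasts of the 10 genes lay between -0.11 and 0.68 with a median of 0.17 (0.39 without the 2 libraries, 0.30 with the GC offset), which was 0.051 without F0_3NC replicate 3 and 0.31 without F0_3NC replicate 2. After knockdown 0 members had an unadjusted p under 0.05, beside 2.34% above 0 and 2.4% below 0 of all genes, and after overexpression 2 did, both below 0, beside 4.8%. These proteins were chosen by the study on the same mice or on cells under the same viruses, so the list is not independent evidence.

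Gja1, which encodes the gap junction protein CX43, averaged 43.9 ± 7.34 CPM in F0_3NC, 44.5 ± 1.75 in F0_5251KD, 44.4 ± 5.39 in F0_5NC and 40.9 ± 6.93 in F0_5251OV (SD, n = 3), and Cadm2, a synaptic-type adhesion molecule, averaged 9.61 ± 1.15 CPM in F0_3NC, 9.29 ± 1.37 in F0_5251KD, 8.79 ± 0.311 in F0_5NC and 8.55 ± 0.816 in F0_5251OV (SD, n = 3). Their contrasts were 0.14 ± 0.20 (SE; 95% interval -0.29 to 0.57; edgeR adjusted p = 0.78) and -0.01 ± 0.20 (SE; 95% interval -0.43 to 0.41; edgeR adjusted p = 0.99). The groups overlapped in both arms for both genes, and the sign of Cadm2 turned under several settings. The upper bound of the interval with all 12 libraries was 0.57 for Gja1 and 0.41 for Cadm2. Their transcript GC contents were 42.2% and 36.9%, in classes whose median contrast with all libraries was -0.21 and -0.27. Without the 2 libraries the contrasts were 0.36 for Gja1 and 0.17 for Cadm2, and with the GC offset they were 0.33 and 0.27. The bounds above were not adjusted for GC.

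The wider tight junction list, with 25 tested genes, had 6 higher and 0 lower at an unadjusted p under 0.05, beside 5.23% and 6.08% of all genes, and a median contrast of 0.32 (0.25 without the 2 libraries, 0.22 with the GC offset). Cgnl1 and Cgn, which link tight junctions to the cytoskeleton, had contrasts of 0.30 ± 0.10 (SE, edgeR adjusted p = 0.40) and 0.44 ± 0.16 (SE, edgeR adjusted p = 0.40). Their libraries were apart in both arms, as were those of 0.743% of all genes in this direction. For Cgn the gap after knockdown was minimal, between 59.16 CPM in F0_5251KD replicate 1 and 59.02 in F0_3NC replicate 1. Its knockdown effect was 0.11 (edgeR unadjusted p = 0.35). After knockdown 0 members had an unadjusted p under 0.05 in either direction, beside 2.34% above 0 and 2.4% below 0 of all genes. After overexpression 7 were below 0 and 0 above, beside 4.8% and 3.97%. The count of higher members was 2 without the 2 libraries and 4 with the GC offset. The adherens junction list had 1 higher and 3 lower (without the 2 libraries 1 and 1, with the GC offset 1 and 3) of 20, with Ctnna3, an alpha-catenin, at -0.66 ± 0.22 (SE, edgeR adjusted p = 0.40), and a median of -0.01 (0.05 without the 2 libraries, 0.01 with the GC offset). The gap junction, desmosome and adhesion molecule lists had 0 higher and 1, 0 and 0 lower, with medians of 0.048, -0.145 and 0.031.

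**Figure D5:**
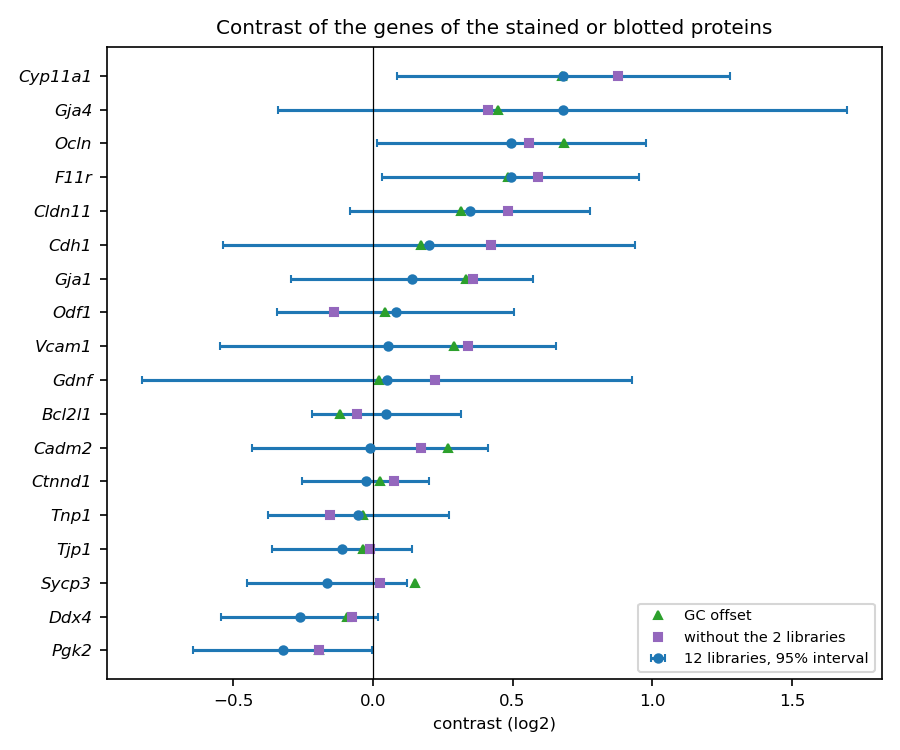
Contrast (log2, x axis) with its 95% interval for the 18 genes of the proteins the study stained or blotted, with the values under the other settings as triangles and squares. The intervals of Cyp11a1, Ocln, F11r and Pgk2 leave out 0, those of the other 14 include it, and no gene passed the adjusted threshold.

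The genes of the spermatogenesis proteins had RNA contrasts between -0.32 and 0.68. For Tnp1, Gdnf and Odf1 the paper reports the protein in testes of the offspring and not in the injected mice. Ddx4, a germ cell RNA helicase, averaged 670.3 ± 63.7 CPM in F0_3NC, 617 ± 29.9 in F0_5251KD, 580.2 ± 35.8 in F0_5NC and 641 ± 64.0 in F0_5251OV (SD, n = 3) and had a contrast of -0.26 ± 0.13 (SE; 95% interval -0.54 to 0.02; edgeR adjusted p = 0.45). Sycp3, of the synaptonemal complex, had -0.17 ± 0.13 (SE; 95% interval -0.45 to 0.12; edgeR adjusted p = 0.61). Pgk2, the glycolytic enzyme of spermatids, averaged 1011 ± 85.0 CPM in F0_3NC, 932 ± 67.2 in F0_5251KD, 888 ± 124 in F0_5NC and 1024 ± 61.7 in F0_5251OV (SD, n = 3) with -0.32 ± 0.15 (SE; 95% interval -0.64 to -0.004; edgeR adjusted p = 0.44). The contrast of Pgk2 was -0.19 without the 2 libraries and -0.19 with the GC offset, and that of Ddx4 was -0.08 without the 2 libraries and -0.09 with the GC offset.

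Cyp11a1 (gene ID 13070, chr9:57998024-58027031), the enzyme of the first step of steroid synthesis, measured 165, 213 and 225 CPM in F0_3NC against 299.9, 211 and 237 in F0_5251KD, and 180.3, 137 and 184 in F0_5NC against 151, 148 and 88.8 in F0_5251OV. The groups overlapped in both arms, and the contrast was 0.68 ± 0.28 (SE; 95% interval 0.09 to 1.28; edgeR adjusted p = 0.42). It was 0.88 without the 2 libraries and 0.68 with the GC offset. Bcl2l1, the antiapoptotic BCL-XL, had a contrast of 0.05 ± 0.12 (SE; 95% interval -0.22 to 0.32; edgeR adjusted p = 0.88). Over the 8 genes of this list the median was -0.002, with 1 higher and 1 lower.

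Meiosis and spermatid lists had negative medians, beside 0.003 for all genes. The meiosis list had a median GC content of 45.0%, and all genes of 43 to 46% GC had a median contrast of -0.142 with all libraries. With all libraries the meiosis list therefore did not lie below genes of like GC. The 33 genes of meiosis had 28 contrasts below 0 and a median of -0.13 (-0.06 without the 2 libraries, -0.09 with the GC offset), with 0 higher and 4 lower (without the 2 libraries 1 and 0, with the GC offset 0 and 1), beside 5.23% and 6.08% of all genes. Meioc, needed to stay in meiotic prophase, averaged 222 ± 58.8 CPM in F0_3NC, 186 ± 15.1 in F0_5251KD, 182 ± 16.5 in F0_5NC and 236 ± 41.3 in F0_5251OV (SD, n = 3) and had a contrast of -0.63 ± 0.23 (SE, edgeR adjusted p = 0.40). The 20 round spermatid genes had a median of -0.10 (-0.18 without the 2 libraries, -0.14 with the GC offset), with 0 higher and 5 lower (without the 2 libraries 0 and 1, with the GC offset 0 and 3). The 41 sperm tail genes had -0.08 (-0.12 without the 2 libraries, -0.10 with the GC offset), with 0 higher and 5 lower (without the 2 libraries 1 and 3, with the GC offset 0 and 2). Without F0_5NC replicate 1 these medians were -0.018 and 0.021. Spermatogonial genes had a median of 0.02 (-0.01 without the 2 libraries, -0.05 with the GC offset), with the receptor Kit at 0.71 ± 0.28 (SE, edgeR adjusted p = 0.42), and the chromatin genes of elongating spermatids had -0.036 with 0 higher and 1 lower of 10.

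Interferon and antigen presentation genes had medians below 0 in both arms. The 22 interferon response genes had medians of -0.42 after knockdown and -0.78 after overexpression, so the contrast had a median of 0.05 (1.078 without the 2 libraries, 0.15 with the GC offset) with 0 higher and 0 lower. Without F0_3NC replicate 2, whose level of that list was the highest of all, the median was 0.77. The median deviations of that list were -0.315, 0.727 and -0.202 in F0_3NC, against -0.051, -0.22 and -0.205 in F0_5251KD. Apart from F0_3NC replicate 2 the libraries of these groups overlapped, so the lower knockdown median rested on that library. The overexpression arm overlapped too, with 0.424, 0.625 and -0.343 in F0_5NC against -0.021, -0.592 and -0.085 in F0_5251OV. MHC class II genes had medians of -0.64 and -0.74 and a contrast of -0.03 (1.02 without the 2 libraries, -0.14 with the GC offset), and without F0_3NC replicate 2 it was 1.001. Their median deviations were -0.43, 0.859 and -0.179 in F0_3NC, against 0.027, -0.509 and -0.383 in F0_5251KD. Here too only F0_3NC replicate 2 lay above the F0_5251KD libraries. In the overexpression arm the MHC class II deviations were 0.557, 0.672 and -0.005 in F0_5NC. They were -0.001, -0.408 and 0.025 in F0_5251OV, so F0_5NC replicate 3 lay among them.

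The lists of general responses had medians that depended on the setting. The heat shock list had -0.02 (0.03 without the 2 libraries, -0.02 with the GC offset) and the hypoxia list 0.08 (0.11 without the 2 libraries, 0.12 with the GC offset), with 1 and 0 members higher and 1 and 0 lower. The circadian clock list had 0.22 (0.15 without the 2 libraries, 0.06 with the GC offset) with 1 higher and 0 lower (without the 2 libraries 2 and 0, with the GC offset 1 and 0). The glucocorticoid response list had 0.11 (0.17 without the 2 libraries, 0.18 with the GC offset) with 3 higher and 1 lower (without the 2 libraries 2 and 2, with the GC offset 2 and 2). Cholesterol synthesis genes had 0.02 (0.21 without the 2 libraries, 0.03 with the GC offset) with 3 higher and 0 lower (without the 2 libraries 1 and 0, with the GC offset 0 and 1). The Bcl2 family had 0.22 (0.07 without the 2 libraries, 0.07 with the GC offset) with 0 higher and 0 lower (without the 2 libraries 1 and 0, with the GC offset 0 and 0).

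Chemokine and NF-kB genes had a median of -0.12 (0.40 without the 2 libraries, -0.30 with the GC offset), whose sign turned without the 2 libraries, with 1 higher and 1 lower (without the 2 libraries 1 and 0, with the GC offset 1 and 1) of 13. Nfkbia, the inhibitor of NF-kB, had a contrast of 0.69 ± 0.17 (SE, edgeR adjusted p = 0.35) and was apart in both arms. The T and NK cell list, of 5 tested genes, had -0.10 (-0.31 without the 2 libraries, -0.19 with the GC offset), the B cell list, of 4, had 0.27 (0.56 without the 2 libraries, 0.39 with the GC offset), and the skeletal muscle list, of 5, had -0.04 (-0.01 without the 2 libraries, -0.12 with the GC offset). These 3 lists had 0 members in either direction. The 6 tested epididymal genes all had contrasts below 0, with a median of -0.30 (-0.23 without the 2 libraries, -0.17 with the GC offset), which was 0.031 without F0_5251OV replicate 1, and 0 members past the unadjusted threshold. The part of epididymal tissue in other results was not tested.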

How the data were processed

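Testis RNA of 12 libraries in 4 groups was analysed. The authors enriched messenger RNA and aligned reads with SOAPaligner 2.20 (mm10 per the labels), and no step that marks strand is named. The deposited table holds, for each gene in each library, an estimated count and its FPKM. The tool that made these values was not given in the sources used here. About 12.0% of the estimated counts had a fraction (tolerance 1e-06), and all were rounded. Another 18 columns belong to samples outside the series and were not used.

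Counts were scaled by TMM, filtered with filterByExpr, and tested two-sided with the quasi-likelihood F test of edgeR 4.0.16 (R 4.3.3) on 4 group means, which left 8 residual degrees of freedom. Adjustment was by Benjamini-Hochberg over all genes, and intervals are at 95%. CPM is counts per the scaled library total. DESeq2 1.42.0, limma 3.58.1, other scalings and filters, a replicate block and leaving out libraries were tried, and the fits were checked on simulated data. GC content came from GENCODE M21 transcripts (98.5% of tested genes), and the offset was a smooth of each library's deviation against it. The GC offset, the fits without the 2 libraries and the chromosome medians were chosen after seeing the data.

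Named genes were the 12 with the smallest p in each direction at a mean of at least 1 CPM, the 6 largest contrasts in each direction among genes apart in both arms, the study's proteins, 2 per list, Purb and the genes DESeq2 called. Others were chosen after their values were seen, and 1 gene under the rule is not reported here. The genes and lists were chosen with earlier results of these data known.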

Additional observations from a re-analysis of the deposited data

How the results depend on the processing

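The number of genes called was 0 with all 12 libraries, and it was 31 with DESeq2, 5 with DESeq2 without both F0_3NC replicate 2 and F0_5251OV replicate 1, and 1 with limma on log2(FPKM + 1), which was Plin1. Leaving out single libraries gave 0 to 1 calls, the 1 being Gm8068 without F0_5NC replicate 3 (edgeR adjusted p = 0.021, 0.39 with all libraries). With an adjusted p under 0.1 the count was 0. The count at an unadjusted p under 0.05 was 1842, and leaving out single libraries gave 1136 (without F0_5251KD replicate 1) to 2147. It was 1154 without F0_5NC replicate 1 and 1207 without F0_5251OV replicate 1. The count of genes apart in both arms in opposite directions was 262, and it was 172 with the GC offset, 624 without both libraries and 310 to 541 without single libraries. Fewer libraries make separation easier by construction, so the latter counts cannot be compared with 262.

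The share of higher genes among those at an unadjusted p under 0.05 was 46.3%, and it was 56.7% with upper-quartile scaling, 65.6% with limma and 60.7% without both libraries. Replicates 1 to 3 are numbered alike in every group, but deviations of same-numbered libraries correlated at -0.242 to 0.161 over 18 pairs, with 2 pairs over 0.1, so the numbers were not taken as pairs. With the replicate block the test called 0 genes, with 804 higher and 839 lower at an unadjusted p under 0.05 (1643 in all).

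Of the named genes, 50 were followed through every setting, and their contrasts kept their sign except for 4 genes near 0. Cadm2 was -0.009 with all libraries and 0.016 with upper-quartile scaling, 0.007 without a filter, 0.012 with at least 1 CPM in 3 libraries, 0.029 and 0.057 with limma on log2(FPKM + 1) and log2(FPKM + 0.1), 0.001 with DESeq2, 0.269 with the GC offset and 0.174 without both libraries, and -0.146 to 0.084 without single libraries. Sycp3 was 0.149 with the GC offset and 0.025 without both libraries, Purb 0.039 and 0.030, and Bcl2l1 -0.118 and -0.058, with -0.030 to 0.125 without single libraries. Named genes outside these 50 turned as well. Without both libraries Odf1 went from 0.082 to -0.138. Ciita, of the MHC class II list, went from -1.04 to 1.63 at a mean of 0.59 CPM. The causes were not tested. Of 34 lists, 17 had a median that changed sign in some setting. The 3 libraries of each group and the shared GC trend of F0_3NC replicate 2 and F0_5251OV replicate 1 limit what the contrast can show, since it adds the error of all 4 groups.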

Other observations

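Chromosomes were looked at after the values were seen. The 128 tested genes of the Y chromosome had a median contrast of -0.42, with 0 higher and 22 lower at an unadjusted p under 0.05, beside 5.23% and 6.08% of all genes. Their medians were -0.14 after knockdown and 0.22 after overexpression. Without both libraries the median contrast was -0.27 with 4 higher and 15 lower, beside 4.74% and 3.07% of all genes. With the GC offset it was -0.25 with 1 higher and 17 lower, beside 4.39% and 4.65%. Many Y genes are copies of each other that share reads, so these counts do not stand for independent genes. The 759 genes of the X chromosome had a median of -0.11 with 30 higher and 89 lower, beside the same shares of all genes. Without both libraries the median was 0.051 with 36 higher and 46 lower, and with the GC offset it was 0.008 with 38 and 49. The sign of the median and the split of the counts thus depended on the setting. Autosomes lay between -0.096 (chromosome 14) and 0.081 (chromosome 15), with median transcript GC contents of 47.0% and 52.7%, and between -0.029 and 0.029 with the GC offset.

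Among the lists of tissue beside the testis, globin genes had a median contrast of 0.28. Of 7 tested, 2 were higher and 0 lower at an unadjusted p under 0.05, beside 5.23% and 6.08% of all genes. Without both libraries the median contrast was 0.52 with 0 in either direction. It lay between 0.15 (without F0_5251KD replicate 1) and 0.76 (without F0_5NC replicate 2) when single libraries were left out. The median deviation of the list was 1.138, 0.042 and 0.158 in the F0_5251KD libraries, so replicate 1 stood above the others of that group. Hba-a1, an alpha-globin whose reads are shared with a near-identical copy, averaged 33.1 CPM in F0_3NC, 55.1 in F0_5251KD, 29.0 in F0_5NC and 23.4 in F0_5251OV, with a contrast of 1.05 (edgeR adjusted p = 0.40). The chemokine Ccl2 averaged 3.17, 1.19, 0.124 and 0.192 CPM in the same order, with a contrast of -1.98 (edgeR adjusted p = 0.42).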
